A study of Mus musculus with 21 samples.

Results

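The bicuculline response at 4 h was compared between mouse cortical cultures treated with MM401 and cultures treated with DMSO, as a difference of differences in nascent RNA. Each gene's value is its change with bicuculline against water under MM401, minus the same change under DMSO, on the log2 scale; it is called the interaction below. It was taken from 11 of the series' 21 libraries, chosen by their labels. These are 3 with DMSO and water, 3 with DMSO and bicuculline, 2 with MM401 and water and 3 with MM401 and bicuculline, all at 4 h. The third MM401 library with water was left out because it held 316741 counts, against 53224745 to 87939384 in the 11.

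All cultures were primary neuron cultures of CD1 mouse cortex at day 17 in vitro, with no genetic change stated in the labels. A 30 min preincubation held either 25 µM MM401 or only its solvent DMSO, and was followed by 40 µM bicuculline-methiodide or by its water vehicle. Bromouridine at 2 mM was present over the last 30 min, so that sequenced RNA was RNA made in that window (BrU-seq). The labels speak of biological replicates of mixed sex and do not say which cultures or animals stand behind a replicate number, so p-values measure the spread between these libraries.

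MM401 is a small peptide-like inhibitor that keeps MLL1, the histone H3 lysine 4 methyltransferase encoded by Kmt2a, from binding its partner WDR5. MLL1 is brought to promoters rich in unmethylated CpG, where methylation of this lysine marks active genes. Bicuculline blocks GABA-A receptors, raises network firing, and over hours sets off homeostatic scaling down of excitatory synapses, which needs new transcription. The interaction asks whether that transcriptional response differs when MLL1 is inhibited, and a gene can enter it through either the water or the bicuculline cultures.

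Marker RNA was counted for all the cell types looked for. Of 12 defining markers, all were above 0 in each of the 11 libraries. Slc17a7, the vesicular glutamate transporter of cortical excitatory neurons, lay between 13.6 and 19.6 CPM (counts scaled to library size, with TMM factors), and Gad1, which makes GABA, between 145 and 279. Aqp4 of astrocytes lay between 47.7 and 93.3 CPM, while Pecam1 of endothelium stayed between 0.739 and 1.56 and Col1a1 of fibroblasts between 0.139 and 0.915. The lowest raw counts were 46 for Pecam1 and 8 for Col1a1. No background level was set, so these 2 do not show that such cells were present.

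Bicuculline changed a large share of the genes under either pretreatment. With edgeR's quasi-likelihood test, 8344 of 16959 genes (49.2%) passed an adjusted p of 0.05 in DMSO (4014 higher, 4330 lower), and 7572 (44.6%) did under MM401 (3898 higher, 3674 lower). With a correction for gene length the counts were 7935 (46.8%) and 8015 (47.3%). Against this, the interaction had 0 genes past an adjusted p of 0.05, in either form (0% of the genes tested).

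The smallest adjusted p of the interaction by edgeR was 0.179 without the length correction and 0.363 with it. At an unadjusted p of 0.05, 2552 genes (15%) passed without the correction, 949 higher (5.6%) and 1603 lower (9.45%) under MM401. With it 1516 genes (8.94%) passed, 582 higher (3.43%) and 934 lower (5.51%). The lower side held 62.8% of the 2552 genes, but 9.78% of 3640 with plain library size, which set the median of all genes at 0.2291 in place of 0.0261. DESeq2 on the same 20 libraries called 436 genes, 2 higher and 434 lower, without the correction, and 9, all lower, with it. The median standard error (SE) of an interaction was 0.1673 on the log2 scale, and 0.1557 with the correction. For 12948 genes (76.3%) the 95% interval lay within a 2-fold difference in both directions, and for 13475 (79.5%) with the correction.

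This count changed on leaving out 1 library. Without replicate 1 of DMSO with water, edgeR called 1551 genes (9.15%), 400 higher (2.36%) and 1151 lower (6.79%). It called 336 (1.98%), 142 higher (0.837%) and 194 lower (1.14%), with the length correction, and 248 genes were called in both forms. A fit without replicates 2 and 3 of that group, chosen after seeing the data, also called 0 genes, with 477 and 414 at an unadjusted p of 0.05; it leaves 1 library in the group, assumed to vary like the other groups, so its 0 says little. Without replicate 1 of MM401 with water, 2 genes were called by edgeR, Rxrg at -0.65 and Sec24d at -0.57 (adjusted p = 0.0282 for both), and Rxrg alone with the correction, at -0.62 (adjusted p = 0.0321); they are named after their values were seen. Leaving out any other single library of the 11 called 0 genes in either form.

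The 3 DMSO libraries with water differed from each other along gene length. For each library a slope was taken of log2 CPM, relative to the gene's mean over 20 libraries, on the log10 of gene length. The slope was -0.004, -0.161 and -0.197 in replicates 1, 2 and 3 of DMSO with water. It was 0.068, -0.003 and 0.077 in DMSO with bicuculline, -0.009 and 0.029 in MM401 with water, and -0.061, -0.043 and -0.051 in MM401 with bicuculline. Replicates 2 and 3 of DMSO with water therefore held relatively less RNA of long genes than any other of the 11 libraries, and replicate 1 lay among the MM401 water libraries.

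The slope's mean difference between bicuculline and water was 0.168 in DMSO and -0.0617 under MM401. The interaction of the slope was -0.23, against a within-group SD of 0.0608 (two-sided exact permutation test over 200 relabellings of the pretreatment, p = 0.03, the smallest possible being 0.005). The share of counts in genes of 100 kb or more followed it. That share was 62.2%, 58% and 57% in the 3 DMSO libraries with water, 62.4%, 62.4% and 62.3% with bicuculline, 61.4% and 61.3% in MM401 with water, and 60.9%, 60.8% and 58.5% in MM401 with bicuculline. Its interaction was -4.59 percentage points (same exact permutation test, p = 0.05). Both tests relabelled the pretreatment separately within the water and the bicuculline libraries, without regard to replicate number. Their p therefore refers to MM401 having no effect in either treatment, not to the difference alone. For the slope the exact permutation p was 0.05 without any one DMSO bicuculline library or without replicate 2 of MM401 with water. The long gene share interaction lay between -6.16 (without replicate 1 of DMSO with water) and -3.55 (without replicate 3 of it) on leaving out 1 library, and its exact permutation p was under 0.05 in 1 of the 11 cases, the former (p = 0.0167).

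**Figure D1:**
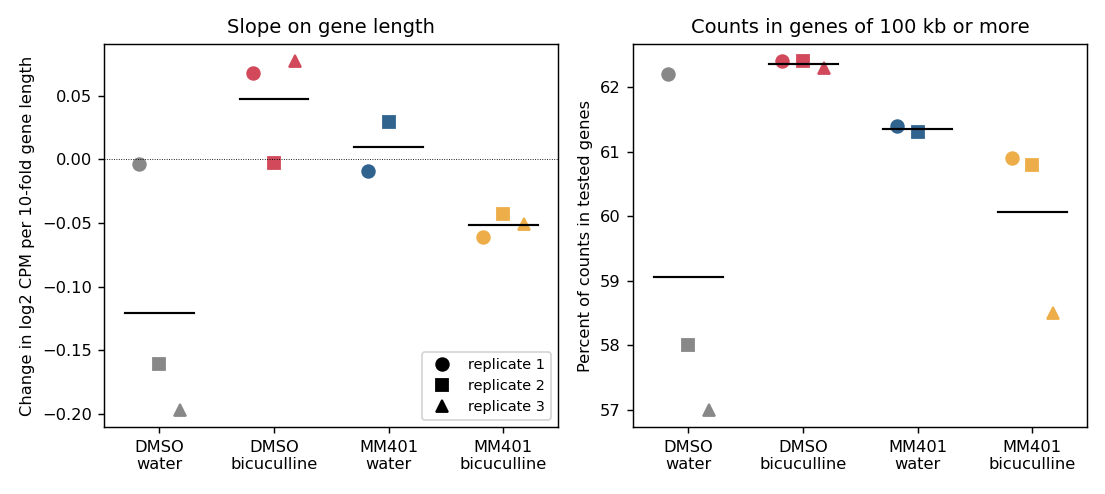
Left, slope of log2 CPM on log10 gene length for each of the 11 libraries; right, percent of counts in tested genes of 100 kb or more. Symbols are replicates and horizontal lines are group means; the lowest 2 libraries on the left are replicates 2 and 3 of DMSO with water at -0.161 and -0.197.

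The uncorrected interaction was ordered by gene length. The median interaction was 0.2514 in genes under 10 kb, 0.0687 from 10 to 30 kb, -0.0708 from 30 to 100 kb, -0.1678 from 100 to 300 kb and -0.3184 in genes of 300 kb and over, against 0.0261 over all genes. Among the 4479 genes under 10 kb, 570 were higher and 26 lower at an unadjusted p of 0.05 (12.7% and 0.58%, against 5.6% and 9.45% of all genes). Among the 538 genes of 300 kb and over, 1 was higher and 283 lower (0.186% and 52.6%). With the correction, 94 genes under 10 kb were higher and 142 lower (2.1% and 3.17%, against 3.43% and 5.51% of all genes). Of those of 300 kb and over, 51 were then higher and 74 lower (9.48% and 13.8%). After the correction the 5 medians lay between -0.0295 and 0.0058. The correction fits a smooth curve of deviation on length to each library and removes it, so a flat profile is what it is built to give.

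**Figure D2:**
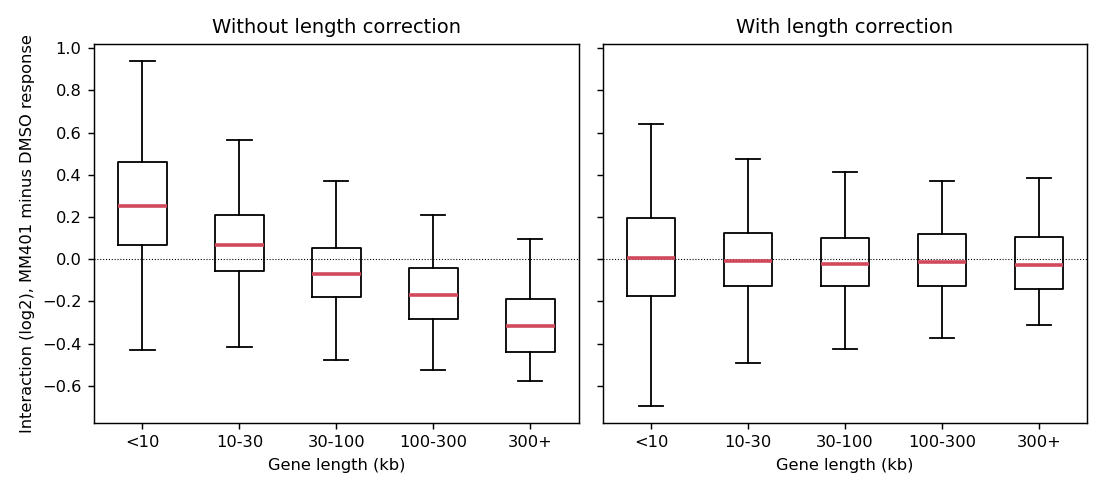
Interaction on the log2 scale for tested genes in 5 bins of gene length, without (left) and with (right) the length correction. Boxes span the quartiles, red lines are medians and whiskers reach the 5th and 95th percentiles; the left medians fall from 0.2514 to -0.3184, and the right ones stay between -0.0295 and 0.0058.

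The forms shared part of their genes. Of the genes at an unadjusted p of 0.05, 1064 passed in both forms, all with the same sign. They were 41.7% of the uncorrected and 70.2% of the corrected genes.

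The comparison of MM401 with DMSO in water called 14 genes (0.0826%) by edgeR, all higher under MM401, and that in bicuculline called 0, with 1309 at an unadjusted p of 0.05 (7.72%) and 7 called by DESeq2. With the correction the water comparison also called 14, of which 11 were shared with the uncorrected form. The bicuculline comparison then called 0, with 767 at an unadjusted p of 0.05 (4.52%) and 2 called by DESeq2. The water libraries enter the interaction too, so the 2 are not separate evidence.

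The 14 genes higher under MM401 in water were Tmem163, Cnih3, Camk1g, Ahrr, Gfra2, Sec24d, Glis1, Rab3b, Nkain1, Tmem40, Map6, Hs3st2, Clmp and Megf11. In each the uncorrected interaction was below 0, from -0.235 in Megf11 to -0.791 in Tmem163. With the correction the interaction of Megf11, a gene of 324 kb, was 0.011. Ahrr, the repressor of the aryl hydrocarbon receptor, kept the largest difference in bicuculline among them, 0.483 on the log2 scale, and its interaction was -0.39. The uncorrected count of 14 was 0 in the fit to the 11 libraries alone and in the fit to all 21, and DESeq2 called 162. Without replicate 1 of DMSO with water it was 1272, and without replicate 2 or 3 of that group, or replicate 2 of MM401 with water, it was 0. It was 6 or 7 without any one MM401 bicuculline library, and 6 without replicate 1 of MM401 with water.

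The genes with the smallest p in each direction were named by rule, 8 per direction and form, and none passed the adjusted threshold. They serve as examples. All 8 uncorrected genes on the higher side were shorter than 30 kb, from 2.83 to 17.3 kb, and all 8 on the lower side were longer, from 57.9 to 188 kb. With the correction the higher side spanned 4.03 to 227 kb and the lower side 57.9 to 471 kb. The forms shared 3 genes on the higher side and 5 on the lower.

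The promoters of the leading gene on each side of each form are shown because MLL1 is recruited to CpG-rich promoters. Each line is the 250 bases before the RefSeq start (GRCm38.p6), 5′ to 3′ on the gene's strand, with CpG dinucleotides in capitals. They are from Smpd1 at chr7:105554110-105554359 (plus strand), Cdh20 at chr1:104768270-104768519 (plus), Rab3b at chr4:108878820-108879069 (plus) and Tmem163 at chr1:127678022-127678271 (minus).
Smpd1: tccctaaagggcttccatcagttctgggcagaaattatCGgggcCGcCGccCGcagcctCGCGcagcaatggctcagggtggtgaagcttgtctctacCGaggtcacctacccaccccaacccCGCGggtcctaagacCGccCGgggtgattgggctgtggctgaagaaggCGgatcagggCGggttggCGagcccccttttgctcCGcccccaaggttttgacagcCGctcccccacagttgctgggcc
Cdh20: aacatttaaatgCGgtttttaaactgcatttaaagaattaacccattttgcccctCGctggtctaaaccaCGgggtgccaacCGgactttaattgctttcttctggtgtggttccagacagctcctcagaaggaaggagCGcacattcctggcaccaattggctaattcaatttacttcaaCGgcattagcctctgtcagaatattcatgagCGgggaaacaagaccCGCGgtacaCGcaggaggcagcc
Rab3b: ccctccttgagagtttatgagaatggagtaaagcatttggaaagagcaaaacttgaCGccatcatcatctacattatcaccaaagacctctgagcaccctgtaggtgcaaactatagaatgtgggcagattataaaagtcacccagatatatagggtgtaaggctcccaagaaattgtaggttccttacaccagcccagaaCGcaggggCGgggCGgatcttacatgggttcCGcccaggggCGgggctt
Tmem163: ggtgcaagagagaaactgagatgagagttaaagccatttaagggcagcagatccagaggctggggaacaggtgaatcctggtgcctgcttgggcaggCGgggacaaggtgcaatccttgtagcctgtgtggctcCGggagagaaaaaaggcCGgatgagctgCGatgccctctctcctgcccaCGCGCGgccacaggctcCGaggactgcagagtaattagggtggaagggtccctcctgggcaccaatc
They hold 16 CpG in Smpd1, 10 in Cdh20, 6 in Rab3b and 8 in Tmem163. In windows that also take in the 50 bases after the start, 39.7% of 13008 matched promoters had fewer CpG than Smpd1, 45.7% fewer than Cdh20, 20.2% fewer than Rab3b and 37% fewer than Tmem163. These are descriptions of 4 windows, and no comparison with the interaction is reported.

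Rab3b, a small GTPase of synaptic vesicles (chr4:108879069-108943324, plus strand, 64.26 kb), had the smallest p of the uncorrected interaction. Its level was 15.2, 14.8 and 14.5 CPM in DMSO with water, 15.6, 17.6 and 16.9 in DMSO with bicuculline, 19.3 and 20.4 in MM401 with water, and 15.1, 15.3 and 16 in MM401 with bicuculline. Both MM401 water libraries stood above every other library, and the bicuculline groups overlapped. The interaction was -0.54 (SE 0.09, edgeR adjusted p = 0.179), and -0.46 (SE 0.10, adjusted p = 0.363) with the length correction. Rab3b rose with bicuculline by 0.18 in DMSO (adjusted p = 0.0242) and fell by 0.36 under MM401 (adjusted p = 0.000267). Its count is uncertain because 8030443G20Rik overlaps it on the other strand and the use of strand is not stated.

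Tmem163, a zinc transporter of synaptic vesicles (chr1:127490341-127678021, minus strand, 187.7 kb), had the smallest p with the correction. Its level was 40.7, 30.8 and 28 CPM in DMSO with water and 49.8 and 55.7 in MM401 with water. With bicuculline it was 61.7, 65.1 and 69.2 CPM in DMSO and 59.8, 65.8 and 55.2 under MM401. The water groups separated and the bicuculline groups overlapped. The interaction was -0.79 (SE 0.16, edgeR adjusted p = 0.202) and, corrected, -0.62 (SE 0.12, adjusted p = 0.363). In DMSO it rose by 0.98 with bicuculline (adjusted p = 3.38e-07), and under MM401 the change was 0.19 (adjusted p = 0.202).

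Glis1, a zinc finger transcription factor (chr4:107434718-107635059, plus strand, 200.3 kb), had the third highest difference between MM401 and DMSO in water among the 14 genes, 0.82, after Tmem40 and Ahrr. Its level was 23.9, 18.7 and 17.5 CPM in DMSO with water and 36 and 34.5 in MM401 with water. With bicuculline it was 20.4, 21.8 and 19.4 CPM in DMSO and 20.1, 24.1 and 20.5 under MM401. It fell by 0.71 with bicuculline under MM401 (edgeR adjusted p = 8.5e-05), while its change in DMSO was 0.04. The interaction was -0.75 (SE 0.17, adjusted p = 0.202) and, corrected, -0.57 (SE 0.13, adjusted p = 0.441).

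Ebf1, a transcription factor of early neuronal differentiation (chr11:44618099-45008096, plus strand, 390 kb), was named in the corrected form. Its level was 26, 18.7 and 17.5 CPM in DMSO with water and 26.7 and 30.2 in MM401 with water. With bicuculline it was 50.7, 45.9 and 44.8 CPM in DMSO and 39.1, 40 and 33.2 under MM401. MM401 libraries were the higher ones in water and the lower ones in bicuculline, without overlap. Ebf1 rose by 1.19 in DMSO (edgeR adjusted p = 6.12e-08) and by 0.40 under MM401 (adjusted p = 0.0176), and the interaction was -0.79 (SE 0.17, adjusted p = 0.202), or -0.54 (SE 0.11, adjusted p = 0.363) corrected.

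Caln1, a neuronal calcium-binding protein (chr5:130369457-130840645, plus strand, 471.2 kb), crossed in the same manner. It lay at 531, 358 and 351 CPM in DMSO with water, 525, 544 and 607 in DMSO with bicuculline, 554 and 588 in MM401 with water, and 468, 481 and 404 in MM401 with bicuculline. Replicate 1 of DMSO with water was close to the MM401 water libraries. The corrected interaction was -0.51 (SE 0.11, edgeR adjusted p = 0.363). A330070K13Rik overlaps it on the other strand.

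Antxr2 and Rerg rose under both pretreatments, by less under MM401. Antxr2, an anthrax toxin receptor that binds extracellular matrix (146.3 kb), rose by 2.33 in DMSO (edgeR adjusted p = 5.87e-15) and by 1.75 under MM401 (adjusted p = 6.32e-12). Its water groups did not overlap, at 38, 31 and 31.5 CPM in DMSO and 43.2 and 48.4 under MM401, and its interaction was -0.57 (SE 0.12, adjusted p = 0.202). Rerg, a Ras-related growth inhibitor (115.7 kb), rose by 1.66 in DMSO and by 1.08 under MM401, with an interaction of -0.58 (SE 0.12, edgeR adjusted p = 0.202).

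Cnih3, an auxiliary subunit of AMPA receptors (108 kb), and Slc12a8 (145.8 kb), a solute carrier, fell with bicuculline under MM401. Cnih3 fell by 0.59 there (edgeR adjusted p = 1.39e-06), from 77.6 and 83.7 CPM to 51.3, 54.5 and 55.3, while in DMSO it lay at 65.8, 56.5 and 54.2 CPM in water and 53.6, 54.9 and 57.4 in bicuculline. Slc12a8 fell by 0.97 under MM401 (edgeR adjusted p = 3.14e-07) and by 0.28 in DMSO (adjusted p = 0.0221). The remaining genes on the lower side were Pcolce2, an enhancer of procollagen processing, at -0.76, and Hs3st2, a heparan sulfate sulfotransferase of neurons, at -0.65.

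On every gene of the lower side in both forms, all MM401 water libraries lay above all DMSO water libraries. The bicuculline libraries separated, with MM401 lower, in 3 of the 8 uncorrected and 4 of the 8 corrected genes. All of them were called by edgeR in both forms without replicate 1 of DMSO with water. That fit called 9.15% of all genes, and 1.98% with the correction. The named genes were chosen for the smallest p in these same libraries, so the separations and the calls follow largely from that choice. The share of all genes whose libraries separate in this way is not given.

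On the higher side, Smpd1, the lysosomal acid sphingomyelinase (chr7:105554359-105558389, plus strand, 4.031 kb), had the smallest uncorrected p. Its level was 4.27, 4.99 and 4.63 CPM in DMSO with water, 4.07, 4.21 and 3.87 in DMSO with bicuculline, 3.74 and 3.63 in MM401 with water, and 5.73, 5.55 and 5.8 in MM401 with bicuculline. The MM401 libraries were the lowest in the experiment in water and the highest in bicuculline, without overlap with DMSO of the same treatment. Smpd1 rose by 0.63 with bicuculline under MM401 (edgeR adjusted p = 0.000354), and its change in DMSO was -0.20 (adjusted p = 0.144). The interaction was 0.83 (SE 0.17, adjusted p = 0.202), and 0.55 (SE 0.14, adjusted p = 0.462) corrected. DESeq2 placed it among the 7 genes it called between MM401 and DMSO in bicuculline, but not among the 2 it called with the correction, Cspg4 and Rpl23.

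Zbtb18, a transcriptional repressor of cortical neuron development (8.417 kb), and Enc1, an actin-binding protein of neurons (11.94 kb), also had MM401 below DMSO in water and above it in bicuculline, without overlap. Zbtb18 lay at 51.5, 61.5 and 64.8 CPM in DMSO with water, 56.2, 56.8 and 50.8 in DMSO with bicuculline, 45.8 and 42.9 in MM401 with water, and 58.1, 58.9 and 59.2 in MM401 with bicuculline. Its interaction was 0.52 (SE 0.12, edgeR adjusted p = 0.202), and 0.35 (SE 0.10, adjusted p = 0.462) corrected. Enc1 fell by 0.20 with bicuculline in DMSO (adjusted p = 0.0461) and rose by 0.30 under MM401 (edgeR adjusted p = 0.0104), and its interaction was 0.50 (SE 0.12, adjusted p = 0.202), or 0.37 (SE 0.10, adjusted p = 0.462) corrected.

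The remaining uncorrected genes of the higher side were Tmem185b, Fam83h, Gstm1, a glutathione transferase, Smpdl3a, a sphingomyelinase-like phosphodiesterase, and Slc35c1, a GDP-fucose transporter. Their interactions ran from 0.54 in Smpdl3a to 1.06 in Tmem185b. In 7 of the 8 genes the MM401 water libraries lay below all DMSO water libraries. The bicuculline libraries separated in 5, of which Fam83h overlapped in water. Without replicate 1 of DMSO with water, edgeR called all 8, and 3 with the correction, in a fit that called 9.15% and 1.98% of all genes. These 8 too were chosen for the smallest p in the same libraries, so the separations and calls follow largely from that choice. The share of all genes that separate is not given. Tmem185b and Slc35c1 fell with bicuculline in DMSO, by 0.86 (edgeR adjusted p = 8.35e-05) and 0.93 (adjusted p = 1.01e-06), and their changes under MM401 were 0.19 and -0.22 (adjusted p = 0.393 and 0.185).

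With the correction the higher side added Cdh20, a cadherin (227 kb), Hapln1, a link protein of perineuronal nets (71.2 kb), Tpcn2, an endolysosomal cation channel, Mlf1 and Raver2. Hapln1 lay at 21.4, 26 and 27.6 CPM in DMSO with water, 16.7, 17.5 and 14.2 in DMSO with bicuculline, 19 and 16.7 in MM401 with water, and 17.7, 17.5 and 15.7 in MM401 with bicuculline. Only the DMSO water group stood apart. Hapln1 fell by 0.64 in DMSO (edgeR adjusted p = 1.82e-05), its change under MM401 was -0.07, and the corrected interaction was 0.65 (SE 0.17, adjusted p = 0.462). Mlf1 rose under both pretreatments, by 1.43 in DMSO and 2.05 under MM401, from 3.33, 3.37 and 3.72 CPM and from 2.05 and 2.61 CPM, to overlapping levels in bicuculline. Tpcn2 and Raver2 overlap 1810010D01Rik and Jak1, so their counts are uncertain.

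**Figure D3:**
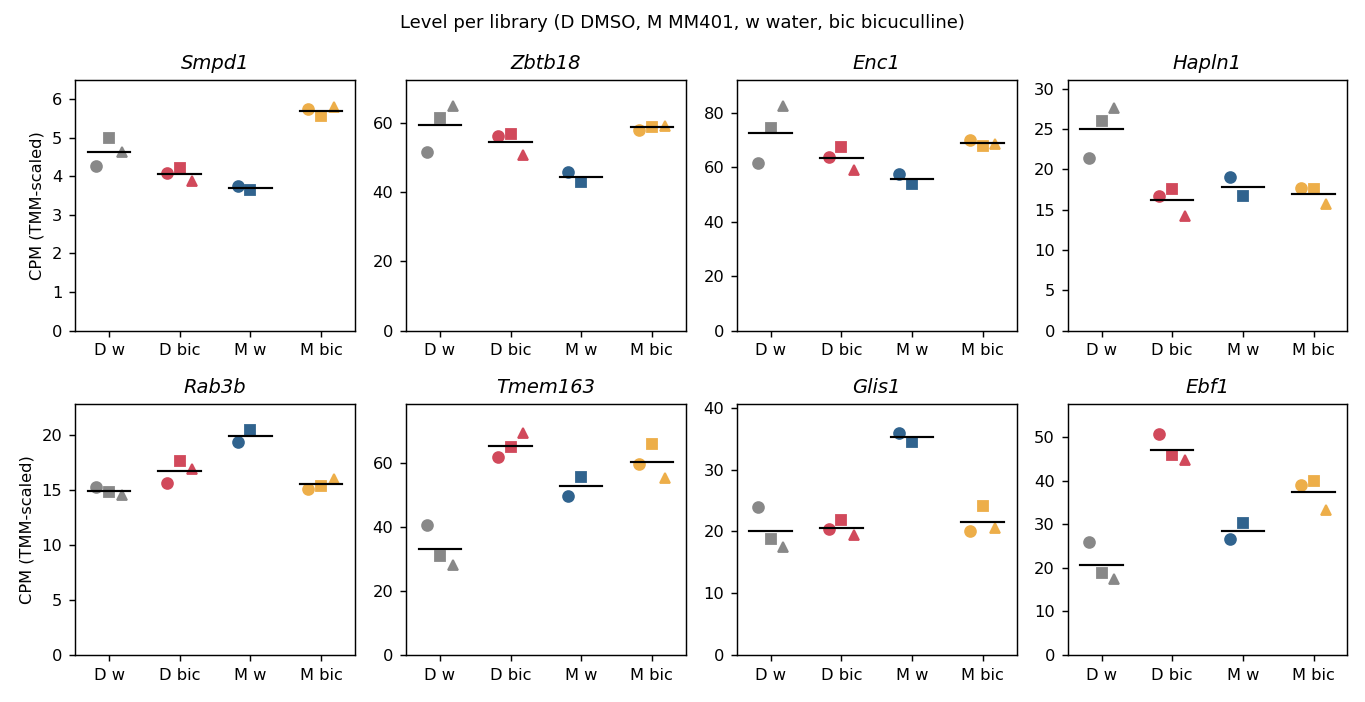
TMM-scaled CPM of 8 named genes in the 11 libraries, with a horizontal line at each group mean; D and M stand for DMSO and MM401, w for water and bic for bicuculline. In the upper row MM401 water libraries are the lowest of the water libraries, and in the lower row the highest; Tmem163 lies between 28 and 69.2 CPM.

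Among the classic activity-induced genes with Kmt2a and Wdr5, 14 genes in all, 0 passed an unadjusted p of 0.05 in either form, against 15% and 8.94% of all genes; their intervals give the differences that the data leave possible. Fosb, a subunit of the AP-1 transcription factor, lay at 4.09, 3.64 and 5.01 CPM in DMSO with water, 52.6, 51.9 and 50.9 in DMSO with bicuculline, 3.14 and 4.81 in MM401 with water, and 60, 53.7 and 51.7 in MM401 with bicuculline. It rose by 3.61 in DMSO (edgeR adjusted p = 6.71e-12) and by 3.79 under MM401 (adjusted p = 9.02e-11), and the interaction was 0.18 with a 95% interval from -0.30 to 0.67, or -0.02 corrected. The uncorrected value of Fosb was -0.09 without replicate 1 of MM401 with water and 0.51 without replicate 2. In water and in bicuculline alike, the pretreatments overlapped.

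Npas4, the neuron-specific activity-dependent transcription factor, rose from 31.3, 23.3 and 24.7 to 348, 265 and 242 CPM in DMSO, and from 27.1 and 30.6 to 335, 295 and 256 CPM under MM401. Its interaction was -0.08 (95% interval -0.61 to 0.45), and -0.30 (-0.98 to 0.38) corrected, and the uncorrected value of Npas4 was 0.11 with plain library size. Bdnf, the neurotrophin, rose from 247, 214 and 200 to 1390, 1430 and 1370 CPM in DMSO, and from 231 and 273 to 1330, 1420 and 1390 CPM under MM401. Its interaction was -0.21 (95% interval -0.52 to 0.10), and -0.16 corrected. A response under MM401 more than 0.52 smaller on the log2 scale thus lay outside the uncorrected interval. The uncorrected value of Bdnf was -0.32 without replicate 1 of MM401 with water and -0.09 without replicate 2.

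Fos, at 0.49 (95% interval -0.05 to 1.02), had the highest value of the 14, and 0.17 (-0.23 to 0.57) corrected. Its bicuculline libraries separated, at 88.7, 97.5 and 88.4 CPM in DMSO and 111, 110 and 106 under MM401. Inhba, a subunit of the growth factor activin, had the lowest, -0.39 (-1.17 to 0.39), and -0.46 (-1.25 to 0.34) corrected. Without replicate 2 of MM401 with water the value of Inhba was 0.06, and 0.016 corrected, and without replicate 1 it was -0.74. It overlaps B230303A05Rik. Homer1, a scaffold of excitatory synapses whose short form drives scaling down, rose in DMSO by 0.65 (edgeR adjusted p = 0.000271), while its change under MM401 was 0.33 (adjusted p = 0.0661). Its interaction was -0.31 (-0.71 to 0.09).

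Of the others, Arc, Nr4a1, Nptx2, Plk2 and Nts had uncorrected values between 0.02 and 0.22, Nptx2 at -0.01 with DESeq2. The corrected values of Arc (-0.20), Nr4a1 (-0.12), Nptx2 (-0.11) and Nts (-0.11) were below 0. Of the 14 genes 6 lay below 0 uncorrected and 12 corrected. Arc lay at -0.15 uncorrected without replicate 1 of MM401 with water and at 0.41 without replicate 2. Plk2, the kinase that drives removal of synaptic proteins in scaling, rose by 1.29 in DMSO and 1.51 under MM401, and its interaction was 0.22 (-0.02 to 0.46), then -0.01 (-0.21 to 0.19) with the correction. Egr1 fell at 4 h in both, by 0.60 in DMSO (edgeR adjusted p = 4.35e-05) and by 0.30 under MM401 (adjusted p = 0.0334), with an interaction of 0.30 (-0.01 to 0.61), and 0.01 corrected.

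Kmt2a and Wdr5, whose proteins the inhibitor keeps apart, had small values. Kmt2a, at 205, 190 and 174 CPM in DMSO with water, 191, 209 and 208 in DMSO with bicuculline, 199 and 211 in MM401 with water and 193, 201 and 179 in MM401 with bicuculline, had an interaction of -0.20 (SE 0.10, edgeR adjusted p = 0.365). Wdr5 fell with bicuculline by 0.36 in DMSO and by 0.40 under MM401, and its interaction was -0.04 (SE 0.10), or 0.16 with plain library size. An inhibitor of protein binding need not change either transcript, so these values do not check the labels.

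Gene lists are given as counts and medians beside those of all genes. Of 24 rapid activity-induced genes, 5 were higher and 0 lower at an unadjusted p of 0.05 (20.8% and 0%, against 5.6% and 9.45% of all genes), with a median of 0.2178. With the length correction 0 passed (3.43% and 5.51% of all genes did) and the median was -0.0075. On leaving out 1 library the rapid activity-induced list median lay between 0.113 (without replicate 3 of DMSO with water) and 0.405 (without replicate 2 of MM401 with water). Corrected, it lay between -0.131 and 0.218, without replicates 1 and 2 of MM401 with water respectively. These are short genes, with a median length of 4.31 kb. Of all genes under 10 kb 12.7% were higher and 0.58% lower uncorrected, with a median of 0.2514. The 5 rapid activity-induced genes on the higher side were Gadd45b, Dusp1, Ier2, Btg2 and Egr4. Dusp1, a phosphatase that ends MAP kinase signals, lay at 13.9, 14.9 and 17.8 CPM in DMSO with water, 52, 51.7 and 43.4 in DMSO with bicuculline, 12.4 and 15.4 in MM401 with water, and 60.2, 62 and 58.6 in MM401 with bicuculline. Its bicuculline groups separated, and its value went from 0.47 (SE 0.17) to 0.14 (SE 0.14) with the correction.

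Of 21 delayed activity-induced genes tested, 1 was higher, Pim1 (4.76%), and 2 were lower, Acan and Sorcs3 (9.52%), shares near those of all genes, with a median of 0.0227, which was -0.01 with DESeq2's scaling. With the correction 0 were higher, the same 2 were lower, 17 of 21 were below 0 (8894 of 16959 of all genes), and the median was -0.0977. Acan, the core protein of perineuronal nets, was higher with bicuculline by 2.78 in DMSO and by 2.23 under MM401. It lay at 7.81, 6.42 and 6.12 CPM in DMSO with water and 8.56 and 12.2 in MM401 with water, without overlap, and at 42.7, 49.1 and 46.7 against 47.5, 50.1 and 48.5 CPM with bicuculline, which overlapped. Its interaction was -0.55 (SE 0.22), and -0.48 (SE 0.21) corrected.

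A set of responsive genes was also taken from libraries outside the interaction, the MM401 cultures at 1 h. Genes without a response under MM401 at 1 h could not enter this set, so its shares do not cover them. Of 399 genes that were called (39.9% of all genes were, in either direction) and at least 2-fold higher with bicuculline there, 31 were higher and 33 lower at an unadjusted p of 0.05 in the 4 h interaction (7.77% and 8.27%, against 5.6% and 9.45% of all genes), with a median of 0.0301. With the correction it was 5 higher and 31 lower (1.25% and 7.77%, against 3.43% and 5.51% of all genes), with a median of -0.0584. Of 138 genes at least 2-fold lower at 1 h, 9 were higher and 5 lower at an unadjusted p of 0.05 (6.52% and 3.62%), and 2 and 6 corrected (1.45% and 4.35%), near or below the shares of all genes.

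Astrocyte genes had the highest list median in both forms. All 16 were above 0 without the correction (median 0.4275, 5 higher and 0 lower at an unadjusted p of 0.05), and 15 of 16 with it (median 0.3609, 6 higher and 0 lower), where all genes had -0.0124. The higher shares are 31.2% and 37.5%, against 5.6% and 3.43% of all genes, of which 9147 and 8065 of 16959 lay above 0. Genes of excitatory cortical neurons lay on the other side, with 0 of 16 higher and 5 lower (31.2%, against 9.45% of all genes; median -0.1039), and 1 higher and 3 lower corrected (18.8%, against 5.51%; median -0.1127, 12 of 16 below 0). The excitatory median was -0.031 uncorrected without replicate 3 of MM401 with bicuculline. Genes of GABAergic interneurons were split, with 12 of 19 above 0 and 7 below (median 0.1212), and 1 higher and 1 lower. Corrected, 13 were above 0 and 6 below (median 0.047), with 2 higher and 2 lower. The GABAergic median lay between 0.018 and 0.216 on leaving out 1 library, and between 0.026 and 0.09 corrected. Of 16 oligodendrocyte lineage genes 8 lay above 0 and 8 below (median 0.0391), with 4 higher (25%) and 1 lower. Corrected, 9 lay above 0 and 7 below (median 0.0542), with 2 higher (12.5%) and 0 lower. The oligodendrocyte median lay between -0.088 and 0.181 uncorrected on leaving out 1 library. Gja1, the gap junction protein connexin 43 of astrocytes, lay at 20.6, 36.5 and 33.7 CPM in DMSO with water, 34.9, 34.2 and 31.1 in DMSO with bicuculline, 23.3 and 18.3 in MM401 with water, and 34.4, 33.7 and 34.7 in MM401 with bicuculline. Low values were confined, for Gja1, to the MM401 water libraries and replicate 1 of DMSO with water. The corrected interaction was 0.46 (SE 0.20). Mlc1, a membrane protein of astrocyte endfeet, was alike, at 19.1, 25.9 and 28.5 CPM in DMSO with water and 18.6 and 19 in MM401 with water, and its corrected interaction was 0.38 (SE 0.15). Aldoc, the astrocyte aldolase, had the highest value, 0.56 corrected, and Atp1b2 the lowest, -0.015. The list's median difference between MM401 and DMSO was -0.3886 in water and 0 in bicuculline.

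The summed level of the 16 astrocyte genes was 1683, 2105 and 2304 CPM in DMSO with water, 2356, 2091 and 2248 in DMSO with bicuculline, 1708 and 1607 in MM401 with water, and 2063, 2085 and 2126 in MM401 with bicuculline. Replicate 1 of DMSO with water lay with the MM401 water libraries and replicates 2 and 3 with the bicuculline libraries. In the length slope too, replicate 1 lay among the MM401 water libraries and apart from replicates 2 and 3. Without replicates 2 and 3 of DMSO with water the list's median was 0.016, and -0.014 corrected; without replicate 1 it was 0.599 and 0.508, and over all single leave-outs the astrocyte list median lay between 0.274 and 0.599, and between 0.238 and 0.508 corrected. In bulk RNA fewer astrocytes and less RNA per astrocyte cannot be told apart, and what part this difference between libraries has in other genes was not tested. Microglial genes had a median of 0.2513, and 0.1103 corrected, with 1 of 15 higher in each form (6.67%, against 5.6% and 3.43% of all genes), the protease gene Ctss. The corrected microglia list median was -0.005 without replicate 2 of DMSO with water and 0.251 without replicate 1 of MM401 with water.

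GABA-A receptor subunits had the lowest median in the fit to 20 libraries. Without replicate 1 of DMSO with water synaptic adhesion genes were lower uncorrected, at -0.4584 against -0.4324. Bicuculline blocks receptors made of most GABA-A subunits, though not those of rho subunits. Of 15 tested, 0 were higher and 8 lower at an unadjusted p of 0.05 (median -0.3162). The list's median length is 91.6 kb. The 8 are 53.3%, where 9.45% of all genes, 13.1% of genes of 30 to 100 kb, 32.1% of genes of 100 to 300 kb and 52.6% of genes of 300 kb and over were lower. With the correction 0 were higher and 4 lower (Gabrr2, Gabra4, Gabrg3 and Gabra5), all 15 lay below 0, and the median was -0.1864, the lowest of the 22 lists. The 4 are 26.7%, against 5.51% of all genes, 6.88% of genes of 30 to 100 kb, 10.6% of genes of 100 to 300 kb and 13.8% of those of 300 kb and over. Gabrg3, a gamma subunit (670.8 kb), lay at 507, 352 and 326 CPM in DMSO with water, 370, 403 and 391 in DMSO with bicuculline, 501 and 519 in MM401 with water, and 339, 346 and 282 in MM401 with bicuculline. Replicate 1 of DMSO with water again lay with MM401, and the bicuculline groups separated. Its interaction was -0.64 (SE 0.20, edgeR adjusted p = 0.229), and -0.33 (SE 0.09, adjusted p = 0.462) corrected.

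Gabra4, an alpha subunit of extrasynaptic receptors (88.58 kb), lay at 197, 151 and 134 CPM in DMSO with water, 315, 304 and 287 in DMSO with bicuculline, 183 and 177 in MM401 with water, and 256, 247 and 210 in MM401 with bicuculline. The water groups overlapped and the bicuculline groups did not. Its interaction was -0.51 (SE 0.19), and -0.41 (SE 0.17) corrected. Gabra5, an alpha subunit of extrasynaptic receptors, had -0.38 (SE 0.14), and -0.26 (SE 0.12) corrected. Gabrr2, a rho subunit at no more than 1.04 CPM, had the lowest value, -1.09 in both forms, and Gabrd the highest, 0.09 and then -0.03. Without replicate 1 of DMSO with water edgeR called 10 of the 15 lower, and 2, Gabrg3 and Gabra5, with the correction. In that fit 6.79% of all genes were called lower, and 1.14% corrected, and 467 of 1811 genes of 100 to 300 kb and 289 of the 538 of 300 kb and over were called lower uncorrected. The list's median was -0.106, and -0.063 corrected, without replicates 2 and 3 of that group, and between -0.275 and -0.072 corrected over all single leave-outs.

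The lists of ionotropic glutamate receptors and of synaptic adhesion, both of long genes, lay nearer the median of all genes, -0.0124, once corrected. Voltage-gated potassium channels, with a median length of 32.3 kb, had a median of -0.1298, and -0.0953 corrected. Ionotropic glutamate receptor subunits had a median of -0.2626, with 0 of 18 higher and 6 lower, and -0.0649 with 1 higher, Gria3, and 0 lower. The 6 are 33.3%, where 32.1% of genes of 100 to 300 kb and 52.6% of those of 300 kb and over were lower; the list's median length is 298 kb. Synaptic adhesion genes, with a median length of 791 kb, had a median of -0.2923, with 1 of 23 higher and 7 lower, and -0.032 with 0 in either direction. The 7 are 30.4%, against 52.6% of genes of 300 kb and over and 9.45% of all genes. Ptprd, a presynaptic receptor phosphatase that organises synapses, lay at 6160, 4050 and 3650 CPM in DMSO with water, 5640, 5800 and 5260 in DMSO with bicuculline, 5760 and 5390 in MM401 with water, and 4830, 4850 and 3760 in MM401 with bicuculline. Its value went from -0.58 (SE 0.23) to -0.15 (SE 0.08).

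Lists of short genes of basic cell functions lay above the median of all genes, 0.0261, before the correction. Genes under 10 kb had 0.2514. Cytosolic ribosomal proteins had a median of 0.1988 and -0.0475 corrected, oxidative phosphorylation 0.1887 and 0.0154, and genes of endoplasmic reticulum stress 0.2343 and 0.0351. On leaving out 1 library the uncorrected medians lay between 0.113 and 0.301, 0.115 and 0.301, and 0.095 and 0.31 in that order.

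Genes of synaptic scaling had a median of -0.1343, with 0 of 25 higher and 5 lower (20%, against 9.45% of all genes), and -0.0663 with 1 higher and 2 lower (8%, against 5.51%). Grm5, the metabotropic glutamate receptor that Homer1 binds, had -0.51 (SE 0.20), and -0.22 (SE 0.10) corrected. The machinery of H3K4 methylation had a median of -0.0747, with 0 of 24 higher and 3 lower, Kdm5c, Kdm5b and Kmt2c, and -0.0829 with 0 higher and 2 lower, Setd1a and Kdm5b. The lower shares, 12.5% and 8.33%, lie near those of all genes, 9.45% and 5.51%. All 24 had a 95% interval within a 2-fold difference in both forms. Of a list of developmental regulators taken as MLL1 targets, with Hox, Meis and Pbx genes among them, 10 of 17 were tested, with 0 higher and 3 lower (30%, against 9.45% of all genes and 32.1% of those of 100 to 300 kb, where the list's median length of 163 kb lies; median -0.1475), and 1 higher, Eya1, and 0 lower corrected (median -0.0647). The median of the MLL1 targets was 0.033, and 0.014 corrected, without replicate 1 of MM401 with water. With plain library size the uncorrected medians of these 3 lists were above 0, at 0.059, 0.125 and 0.054, below the 0.2291 of all genes under that scaling.

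**Figure D4:**
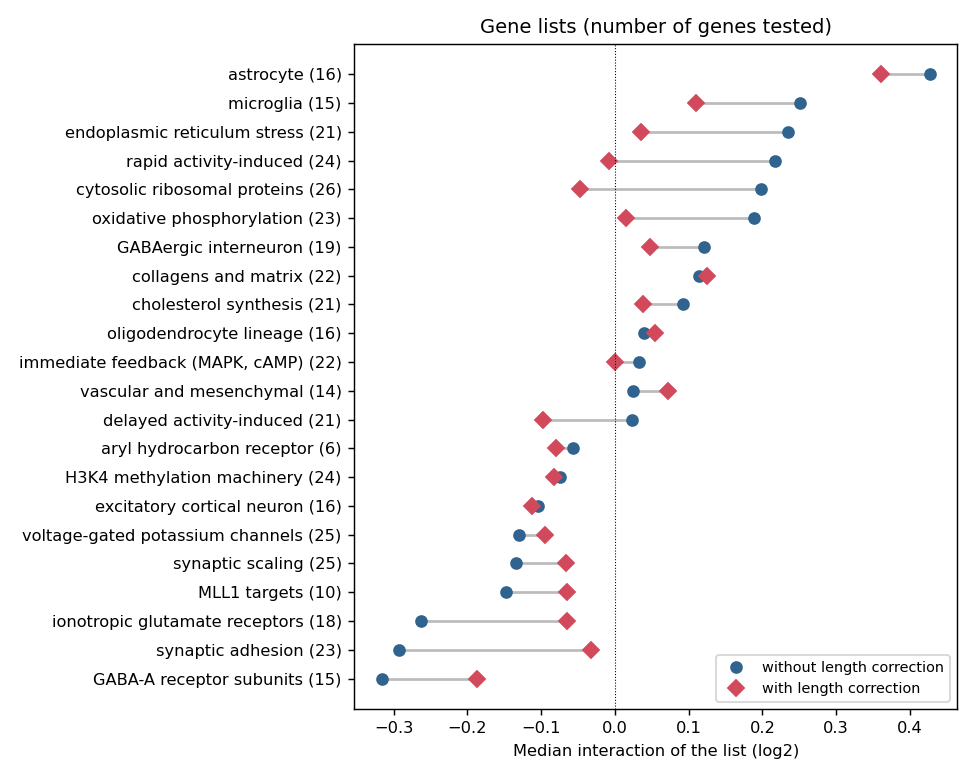
Median interaction on the log2 scale of 22 gene lists, with the number of genes tested in brackets; circles are without and diamonds with the length correction. Astrocyte genes stay highest at 0.4275 and 0.3609 and GABA-A receptor subunits lowest at -0.3162 and -0.1864, while synaptic adhesion genes move from -0.2923 to -0.032.

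**Figure D5:**
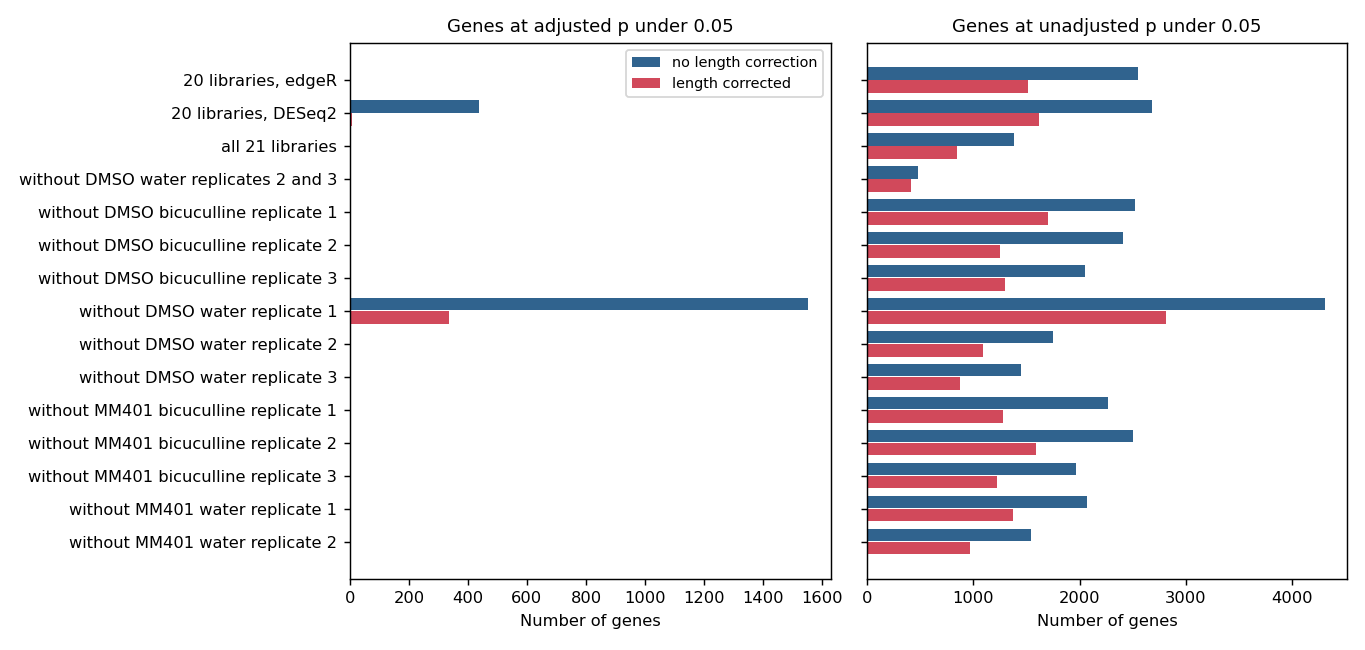
Number of genes at an adjusted (left) or unadjusted (right) p under 0.05 for the interaction, by fit and by library left out, without (blue) and with (red) the length correction. Calls by edgeR appear without replicate 1 of DMSO with water (1551 and 336), and as 2 genes and 1 without replicate 1 of MM401 with water, too few to see as bars; DESeq2 called 436 and 9.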

How the data were processed

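BrU-seq libraries of the 4 groups at 4 h were compared; the 20 deep libraries of all 7 groups shared 1 model. The deposited values are raw read counts for 24984 genes. The authors' featureCounts run, per the file headers, counted reads over whole gene spans, so introns are included; strand use is not given in the sources used here. The submitters' processing notes name build mm10 and UMI-tools; whether duplicates were removed is not given.

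Genes were filtered by edgeR's filterByExpr (minimum count 10, total 15), leaving 16959. Of all genes, 412 had several positions. Libraries were scaled by TMM and fitted with edgeR 4.0.16 (R 4.3.3, limma 3.58.1) by robust quasi-likelihood with 1 mean per group, with Benjamini-Hochberg adjustment over all genes; all tests were two-sided. The length correction added, per library, a lowess curve (span 0.3) of log2 CPM deviation (prior count 2) on log10 gene length. A gene was called at an adjusted p under 0.05. The biological coefficient of variation was 8.77%, and 7.84% corrected. Scripts were tested on simulated data.

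No replicate pair agreed within sampling noise (chi-square per degree of freedom 6.538 to 67.9). Replicate numbers come from the labels, and the main model leaves them out. All 15 correlations of same-numbered libraries' deviations were above 0, and 9 were over 0.1 (median 0.102, range 0.0103 to 0.198). All 3 were over it between MM401 and DMSO in bicuculline (0.15, 0.107 and 0.172), where a block left 0 genes called, and between MM401 with bicuculline and DMSO with water (0.144, 0.101 and 0.198), which were not compared.

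The comparison, the lists and the named genes were chosen with earlier results of these data known. Named genes were 14 set ones, and per form and direction the 8 with the smallest p among genes with a mean of at least 2 CPM in a group, with gene models, pseudogenes, mitochondrial genes and genes of small RNAs (microRNA, snoRNA) excluded, and each list's highest and lowest member. Alternatives were DESeq2 1.42.0, plain library size, other filters, other sets of libraries, a replicate block, 20 length bins, a span of 0.7 and leaving out each library. One, leaving out replicates 2 and 3 of DMSO with water, was chosen after seeing the data. A comparison of genes by promoter CpG was computed but is not reported, since only 13008 of 16959 (76.7%) matched a RefSeq promoter.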

Additional observations from a re-analysis of the deposited data

Results flagged for a closer look

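The slope of nascent RNA level on gene length differed between bicuculline and water in opposite directions under the 2 pretreatments, by 0.168 in DMSO and -0.0617 under MM401, a difference of -0.23 (two-sided exact permutation test, p = 0.03). It was listed because the difference itself was tested. Replicate 1 of DMSO with water, at -0.004, lay apart from replicates 2 and 3, at -0.161 and -0.197. What sets these libraries apart was not tested.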

How the results depend on the processing

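The interaction stayed at 0 calls by edgeR with plain library size, with either other filter, with the 11 libraries alone, with all 21, and with other forms of the length correction. DESeq2 gave 436 calls, and 9 corrected (Caln1, Cnih3, Ebf1, Glis1, Pcolce2, Rab3b, Rxrg, Slc12a8 and Tmem163). Leaving out 1 library gave 0 to 1551 calls, and 0 to 336 corrected; at an unadjusted p of 0.05 it gave 1446 to 4303 genes, and 875 to 2814 corrected. All 21 libraries gave 1380 and 852 such genes, and the fit without replicates 2 and 3 of DMSO with water 477 and 414. Plain library size moved the median of all genes from 0.0261 to 0.2291, and the lower share of genes at an unadjusted p of 0.05 from 62.8% of 2552 to 9.78% of 3640; with the length correction the lower share was 60.8% of 1504 against 61.6%, and 74.8% by DESeq2. For MM401 in water, 14 uncorrected calls became 162 with DESeq2, 4 with plain library size, 0 with the 11 libraries, with all 21 and without replicates 2 and 3 of DMSO with water, and 0 to 1272 on leaving out 1 library. The 14 corrected calls became 210, 14, 1, 2 and 0 in that order of settings, and 1 to 813. For MM401 in bicuculline DESeq2 called 7, and 2 corrected. The length slope interaction lay between -0.289 and -0.192 on leaving out 1 library, with p = 0.05 (exact permutation test) without any one DMSO bicuculline library or without replicate 2 of MM401 with water, and the long gene share between -6.16 and -3.55. With the replicate number as a block, 0 genes were called in both forms, with 2616 and 1599 at an unadjusted p of 0.05, and for MM401 in water 19 uncorrected calls, 2 of them lower (Hist1h1d and Hist1h3d), and 23 corrected calls, 1 of them lower, against 14 higher in each form without it. With each named gene counted once per alternative, the sign of an uncalled value changed in 24 cases, and in 34 corrected; with each list counted so, its median moved by more than the spread between replicates in 65 and 22 cases. The causes were not tested. With the shallow library the slope interaction was -0.878 and the long gene share interaction -2.37. Without the shallow library, the share interaction for genes of 300 kb or more was -4.18. What limits the precision, depth or the 2 or 3 libraries per group, was not tested.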
